A study of Homo sapiens with 95 samples.

Results

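The comparison asked how overexpression of NRF2, the transcription factor encoded by NFE2L2, altered the transcriptome of human airway cells that were at the same time exposed to cigarette smoke condensate (CSC). They belonged to AALE, a line of immortalized epithelial cells from human bronchi. One population carried NRF2 and the other carried HcRed, a red fluorescent reporter in the otherwise empty vector, which served as the control. The comparison was made of the 3 wells labelled NRF2 with CSC and the 3 wells labelled HcRed with CSC, 6 of the 95 wells in the files, and of the 11062 genes with a mean count over 1 in those 6 wells. All 6 wells were exposed to CSC at 24 µg/ml, dissolved in dimethyl sulfoxide (DMSO), after the cells had been left confluent. Wells of the same populations given DMSO alone, or NNK, a nitrosamine of tobacco smoke, were used to show how the difference behaved without CSC, with 3 wells per population and chemical. Other populations of the study are named after the gene that was altered. PIK3CA, FGFR1 and NRG1 were overexpressed, with HcRed as the control, whereas FAT1 and CDKN2A were knocked out by CRISPR. The GFP population, given a Cas9 plasmid without guide RNA, was the control of the knockouts. The exposure time was not given in the sources used here. The study describes the replicates of each condition as biological. The labels do not say that wells were separate cultures, so all p-values measure the spread between these wells, which may be technical. Each construct was present as a single population, and NRF2 wells lay in other plate rows than HcRed wells, so the construct cannot be told apart from the population or the plate row.

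NRF2 is the main transcriptional regulator of the response to oxidants and electrophiles. In resting cells KEAP1 binds NRF2 and presents it for degradation, and modification of KEAP1 by reactive compounds, of which tobacco smoke holds many, lets NRF2 build up in the nucleus. There it pairs with small MAF proteins, competes with the repressor BACH1 and binds antioxidant response elements (ARE). Its known targets in airway epithelium include the enzymes of glutathione synthesis, the thioredoxin system, quinone and carbonyl reductases, NADPH-producing enzymes and the proteins that store iron.

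Expression was measured by 3′ digital gene expression, in which only the 3′ end of each transcript is sequenced and each molecule, marked by a unique molecular identifier (UMI), is counted once. Values are given below as CPM, the count of a gene scaled to the TMM-adjusted size of its library, and differences as log2 fold changes of NRF2 over HcRed with their SE. A gene was called when its Benjamini-Hochberg adjusted p from limma was below 0.05. The HcRed wells held 752338, 1329508 and 1142300 counts and the NRF2 wells held 1298171, 1327886 and 1365103, so the first HcRed well was the shallowest. The epithelial identity of the line was visible in its markers. All 15 listed epithelial genes were measured, with a summed level of 575 to 618 CPM in the HcRed wells and 637 to 690 CPM in the NRF2 wells. By contrast, the defining markers of secretory cells (SCGB1A1), ciliated cells (FOXJ1), fibroblasts (COL1A2) and leukocytes (PTPRC) had no count in any of the 6 wells. The 12 secretory and ciliated markers in the files summed to 0.715 to 1.72 CPM in the HcRed wells and 0.719 to 3.66 CPM in the NRF2 wells, with 7 at 0 in all 6. The 10 fibroblast markers summed to 3.77 to 5.17 and 2.88 to 6.57 CPM, with 5 at 0. The 10 leukocyte and endothelial markers summed to 31.5 to 43 and 32.8 to 38.1 CPM, with 6 at 0 and 3 that passed the filter on low counts.

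In the CSC wells, 319 of the 11062 genes were called, or 2.88%. Of these, 173 were higher in the NRF2 wells (1.56% of genes tested) and 146 were lower (1.32%). The split between directions varied, since 54.2% of calls were higher here, but 44.8% in 1 fit of all groups, 46.2% without HcRed replicate 2 and 66.6% without NRF2 replicate 1. The 3 wells of each population did not overlap for 167 of the 173 genes called higher and for 142 of the 146 called lower. Over all genes tested, the NRF2 wells lay wholly above the HcRed wells for 10.1% and wholly below for 8.44%. Most called differences were small. Only 54 exceeded 1 on the log2 scale in either direction, and 166 were below 0.5.

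NFE2L2 itself was the check of the labels. Its level was 51.6, 42.9 and 31 CPM in the HcRed wells and 147, 133 and 161 CPM in the NRF2 wells. The populations did not overlap, and the means were 41.8 ± 10.3 and 147 ± 14 CPM (SD, n = 3 each). The log2 fold change was 1.86 (SE 0.15) with an adjusted p of 1.16e-14. Under CSC, NFE2L2 lay between 39.9 and 48.5 CPM in the population overexpressing PIK3CA. It lay between 51.3 and 74.6 CPM in the GFP control population and between 38.2 and 41.3 CPM in the FAT1 knockout population. The gene lies on chromosome 2 (hg19, 178083395 to 178257484, minus strand). Whether its tags came from the transgene or from the endogenous gene cannot be told apart. KEAP1, the NRF2 inhibitor, was near the detection limit, with 2 to 10 counts per well, and its log2 fold change of 0.30 did not pass (95% interval −0.65 to 1.25, adjusted p = 0.857). BACH1 (−0.20) and MAFG (−0.25) also did not pass, each with overlapping wells.

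**Figure D1:**
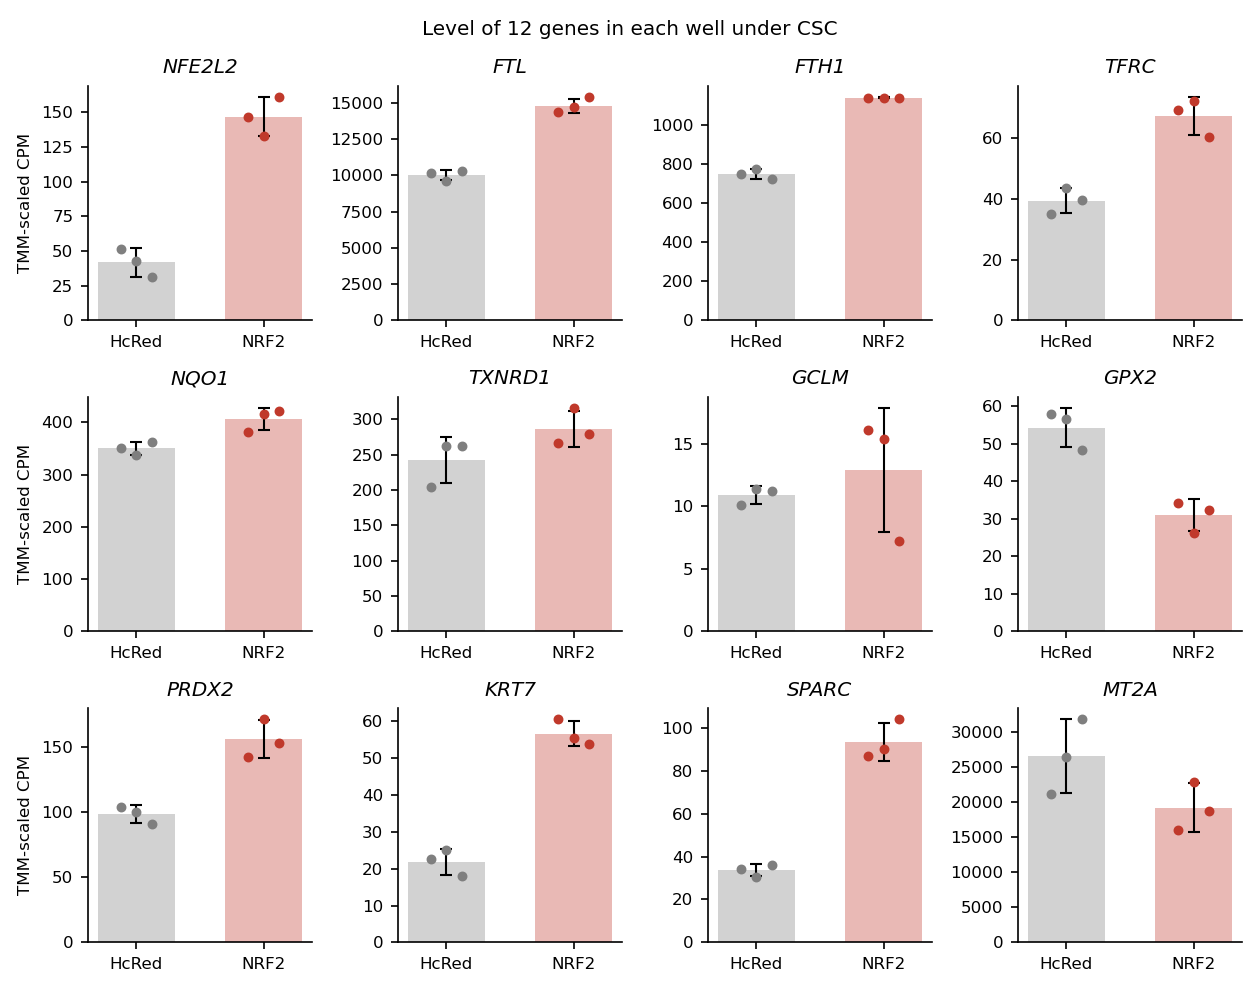
TMM-scaled CPM of 12 genes in the HcRed and NRF2 wells under CSC, with bars for the mean, whiskers for the SD and a point for each of the 3 wells. NFE2L2, FTL, FTH1, TFRC, PRDX2, KRT7 and SPARC lay higher in every NRF2 well, GPX2 lay lower in every NRF2 well, NQO1 and TXNRD1 were slightly higher without passing the test, and GCLM and MT2A wells overlapped.

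Lists of genes linked to NRF2 function (glutathione, thioredoxin, quinone and carbonyl metabolism, iron and heme, and NADPH supply) held 114 genes, of which 98 were tested. Of the 98, 6 were called higher, 5 were called lower and 87 did not pass. The called share was 11.2%, beside 2.88% of all genes. The median log2 fold change of the 98 genes was 0.08, and 65.3% were positive, beside a median of 0.01 and 50.9% positive over all genes tested. The lists therefore held calls in both directions, and these are described by role below.

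The iron list gave 3 called genes of 14 tested, all higher. FTL and FTH1 encode the light and heavy chains of ferritin, the cytosolic iron store. FTL was at 10200, 9630 and 10300 CPM in the HcRed wells and at 14400, 14700 and 15400 CPM in the NRF2 wells. It rose by 0.58 on the log2 scale (SE 0.02, adjusted p = 2.54e-34), the smallest adjusted p among all genes. FTH1 was at 750, 776 and 721 CPM in the HcRed wells and at 1140 CPM in each NRF2 well (log2 fold change 0.61, SE 0.05, adjusted p = 4.27e-13). In both genes the wells were clearly separated. TFRC, the receptor that brings transferrin-bound iron into the cell, rose as well, from 35.2, 43.6 and 39.6 to 69.3, 72.4 and 60.4 CPM (log2 fold change 0.75, SE 0.16, adjusted p = 0.00197). FTL lies on chromosome 19 (hg19, 49468566 to 49470136) and FTH1 on chromosome 11 (61727190 to 61735106). Both have many processed copies in the genome, and how tags matching several of them were counted could alter these values. HMOX1, which degrades heme and is a classical NRF2 target, had between 0 and 2 counts per well and was not tested. Levels of these genes were also high in the PIK3CA population, which under CSC held FTL at 17700 to 18600 CPM, FTH1 at 1010 to 1260 CPM and TFRC at 75.6 to 80.6 CPM.

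The glutathione list gave 3 called genes of 25 tested, all lower in the NRF2 wells. GPX2, a glutathione peroxidase of epithelia and a known NRF2 target, was at 57.9, 56.5 and 48.2 CPM in the HcRed wells and at 34.3, 26.3 and 32.4 CPM in the NRF2 wells. It fell by 0.79 on the log2 scale (SE 0.18, adjusted p = 0.00232), with no overlap of wells. GPX3, the secreted glutathione peroxidase, fell by 1.91 (SE 0.47, adjusted p = 0.00854) on low counts of 6 to 15 in the HcRed wells and 3 to 4 in the NRF2 wells, and it was no longer called without NRF2 replicate 2 or 3 or by DESeq2. GSTP1, the glutathione S-transferase most abundant in lung epithelium, was at 1130, 1150 and 1140 CPM against 1030, 902 and 971 CPM. It fell by 0.23 (SE 0.05, adjusted p = 0.00384), a call lost without NRF2 replicate 2 and in 1 fit of all groups. The genes of glutathione synthesis did not pass. GCLM and GCLC encode the subunits of the rate-limiting ligase. GCLM was at 10.1, 11.4 and 11.2 CPM against 16.1, 15.4 and 7.19 CPM (log2 fold change 0.13, 95% interval −0.51 to 0.76). GCLC had a log2 fold change of −0.04 (−0.51 to 0.43), and SLC7A11, the cystine importer, of 0.05 (−0.35 to 0.44). GSS, the second enzyme of synthesis, lay wholly higher in the NRF2 wells (0.64, 95% interval 0.20 to 1.08) with an adjusted p of 0.116.

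An ARE core, TGACNNNGC on either strand, was searched in the window from 250 bases before to 50 bases after each gene's start (RefSeq, GRCh38.p14). It occurred in 13.3% of 35116 windows. Of the 98 tested NRF2-linked genes, 78 had a window and 17 of these held the core. Among called members with a window only GPX2 and GSTP1, both called lower, held it. Stretches around a match are printed for 4 members that are textbook NRF2 targets, since their tags did not move alike: GPX2 fell, and GCLM, TXNRD1 and ME1 did not pass. The core is in capitals, and sequences run 5′ to 3′ on the strand of the gene. GPX2 is at chr14:64942839-64942887 (minus strand), GCLM at chr1:93909436-93909484 (minus), TXNRD1 at chr12:104215660-104215708 (plus) and ME1 at chr6:83431160-83431208 (minus). The first base of the capitals stands 122 bases before the start in GPX2, 34 in GCLM, 99 in TXNRD1 and 137 in ME1. The windows of NQO1, FTL, SRXN1, GCLC, TFRC and PRDX2 did not hold these letters, which says nothing of elements further away.
GPX2: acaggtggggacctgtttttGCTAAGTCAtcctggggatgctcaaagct
GCLM: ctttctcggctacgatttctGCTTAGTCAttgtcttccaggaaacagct
TXNRD1: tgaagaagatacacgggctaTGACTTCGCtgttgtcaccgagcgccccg
ME1: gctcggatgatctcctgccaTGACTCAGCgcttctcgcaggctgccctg

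The thioredoxin list gave 1 gene called higher and 2 called lower of 19 tested. PRDX2, a cytosolic peroxiredoxin that reduces hydrogen peroxide, was at 104, 100 and 90.4 CPM in the HcRed wells and at 142, 171 and 153 CPM in the NRF2 wells, and rose by 0.67 on the log2 scale (SE 0.11, adjusted p = 3.07e-05). TXNIP, which binds and inhibits thioredoxin, fell from 55.4, 63.6 and 56.0 to 35.8, 35.8 and 38.1 CPM (log2 fold change −0.67, adjusted p = 0.00734), and was not called without HcRed replicate 2 or in 1 fit of all groups. SOD1, the cytosolic superoxide dismutase, fell by 0.17 (adjusted p = 0.0329), and of the 6 fits that left out a well only the one without NRF2 replicate 1 kept this call, which edgeR and 1 fit of all groups did not make. The thioredoxin reductase gene TXNRD1 was at 205, 262 and 262 CPM against 266, 316 and 280 CPM. The NRF2 wells lay just above the HcRed wells, and the difference of 0.23 (95% interval 0.05 to 0.41) had an adjusted p of 0.205. Thioredoxin itself (TXN, 0.07), PRDX1 (0.08) and sulfiredoxin (SRXN1, −0.26) did not pass either.

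Among the quinone, carbonyl and drug metabolism genes, 2 of 27 tested were called, both higher. AKR1B10, an aldo-keto reductase that detoxifies reactive aldehydes, was at 17.6, 10.7 and 9.47 CPM in the HcRed wells and at 31.4, 19.0 and 19.4 CPM in the NRF2 wells. Its log2 fold change was 0.94 (SE 0.28, adjusted p = 0.0462), and the call was lost without HcRed replicate 2 or 3 or NRF2 replicate 1, by DESeq2, with RLE size factors, with no filter on low counts and in 1 fit of all groups. ALDH7A1, an aldehyde dehydrogenase, rose by 0.44 (SE 0.13, adjusted p = 0.0437), a call lost without HcRed replicate 1 or 2 or NRF2 replicate 1 or 3, by DESeq2, with no filter, with a replicate block and in 1 fit of all groups. NQO1, the quinone reductase that is often used as a readout of NRF2, was at 350, 338 and 362 CPM against 382, 415 and 421 CPM. Its 3 NRF2 wells were above the 3 HcRed wells, by 0.22 on the log2 scale (95% interval 0.07 to 0.37), but it did not pass (adjusted p = 0.114). AKR1C1, another known target, was at 21.4, 17.2 and 24.1 CPM against 9.48, 16.1 and 12.2 CPM, with a log2 fold change of −0.70 (adjusted p = 0.181). None of the 13 NADPH supply genes was called by limma, edgeR or DESeq2, and 1 had an unadjusted limma p below 0.05. Of the 13, 11 had a positive log2 fold change, among them PGD (0.20), TALDO1 (0.29) and ME1 (0.50).

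**Figure D2:**
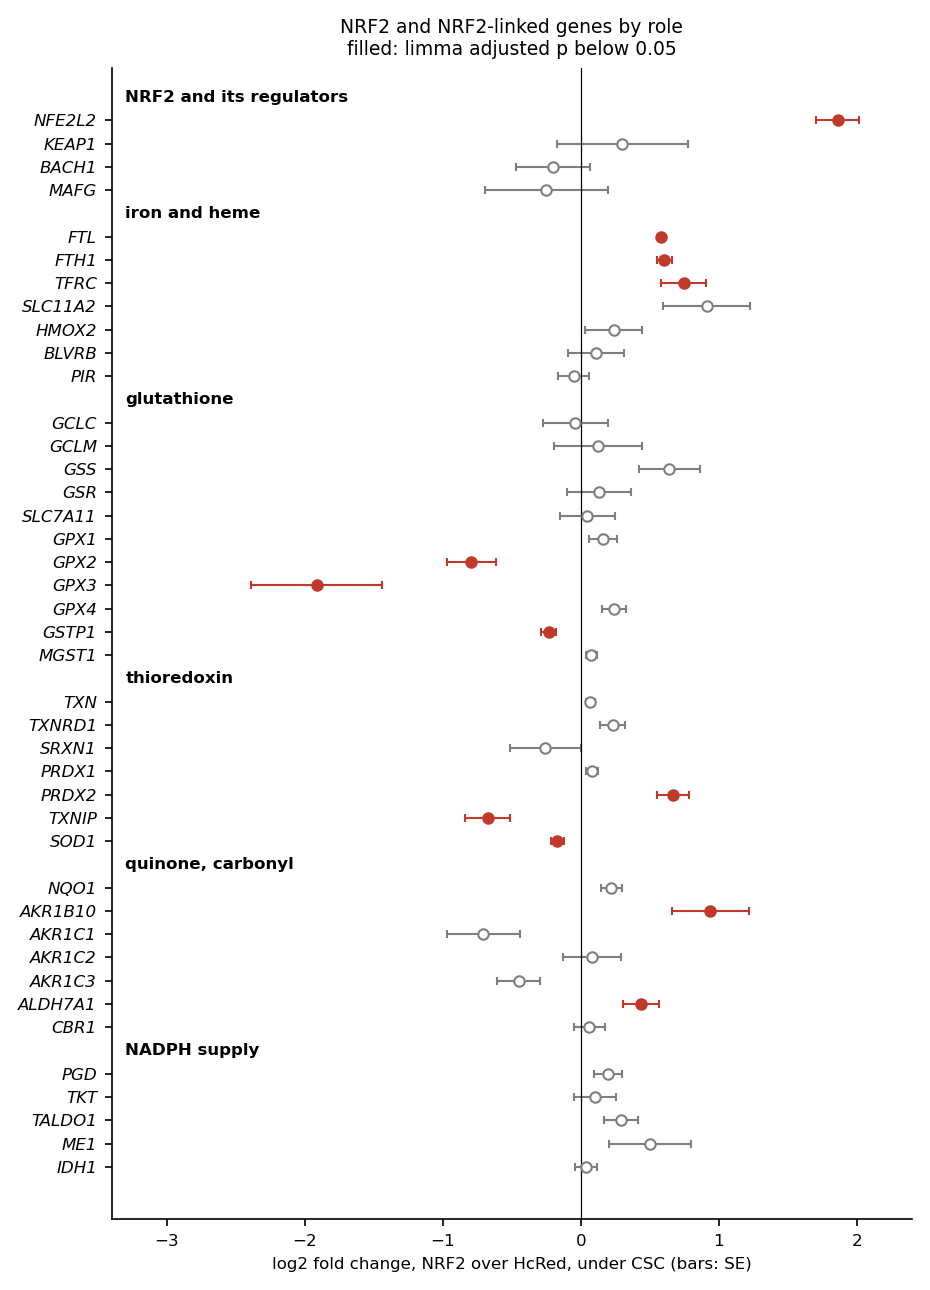
Log2 fold change of NRF2 over HcRed under CSC for NFE2L2, its regulators and NRF2-linked genes grouped by role, with bars for the SE and filled points for genes called by limma. NFE2L2 stands at 1.86 and FTL, FTH1 and TFRC between 0.58 and 0.75, while GCLM, GCLC, NQO1 and the NADPH genes are open points and GPX2 and GPX3 are filled points below 0.

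The aryl hydrocarbon receptor (AHR) drives the other main response to smoke, induced by its polycyclic hydrocarbons. CYP1A1, its best known target, was at 31.5, 25.7 and 19.8 CPM in the HcRed wells and at 56.9, 34.4 and 53.2 CPM in the NRF2 wells. It rose by 0.92 on the log2 scale (SE 0.21, adjusted p = 0.00291), a call lost without HcRed replicate 3. CYP1B1, another AHR target, was at 135, 109 and 111 CPM against 112, 74.6 and 97.1 CPM and did not pass (−0.30, adjusted p = 0.258). The AHR list of 15 tested genes, which holds NFE2L2 itself, had 2 called higher and 1 called lower. The shares over all genes tested were 1.56% and 1.32%. SERPINB2, an inhibitor of plasminogen activators that is on that list, fell from 31.5, 47.2 and 43.9 to 11.7, 10.2 and 12.2 CPM (log2 fold change −1.84, adjusted p = 1.20e-07). DESeq2 gave SERPINB2 no adjusted p and so made no call.

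Keratins and genes of basal cells changed in both directions, with 4 of 25 called higher and 5 called lower. The shares over all genes tested were 1.56% and 1.32%. The genes called higher were KRT7, KRT8, KRT18 and KRT17. KRT17 rose by 0.34 (adjusted p = 0.00452), a call lost without HcRed replicate 1 and in 1 fit of all groups. KRT7 was at 22.6, 25.0 and 18.1 CPM in the HcRed wells and at 60.6, 55.6 and 53.9 CPM in the NRF2 wells (log2 fold change 1.36, SE 0.20, adjusted p = 1.02e-06). KRT8 and KRT18, which form the filament pair of simple epithelia, rose by 0.88 and 0.53 (adjusted p = 0.00579 and 0.00153). KRT19 fell instead, from 210, 224 and 226 to 134, 100 and 129 CPM (log2 fold change −0.87, SE 0.11, adjusted p = 6.43e-09), as did KRT6A, a keratin of activated and wounded epithelium (−0.55, adjusted p = 8.38e-06). Reads of KRT6A can be shared with its near-identical relatives. LAMA3, a laminin chain that helps anchor basal cells to the basement membrane, fell by 0.96 (adjusted p = 2.01e-05). KRT5, the defining basal keratin, was at 193, 194 and 155 CPM against 229, 184 and 197 CPM, with overlapping wells.

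Of 31 S100 and squamous differentiation genes, 1 was called higher and 5 were called lower, beside 1.56% and 1.32% of all genes tested. S100P, a calcium-binding protein, rose from 22.6, 17.2 and 12.9 to 52.5, 40.2 and 41.0 CPM (log2 fold change 1.39, SE 0.23, adjusted p = 1.08e-05). S100A2, an abundant S100 protein of basal cells, fell from 4560, 4910 and 4970 to 3990, 3710 and 3720 CPM (−0.34, adjusted p = 4.50e-13). The protease inhibitor SERPINB1 fell from 88.1, 109 and 101 to 56.9, 59.2 and 60.4 CPM (−0.76, adjusted p = 6.44e-05). S100A4 (−0.83), S100A11 (−0.30) and S100A6 (−0.11) fell as well, the last pair without a call in 1 fit of all groups and S100A6 without a call by edgeR.

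The mesenchymal and matrix list had 3 called higher and 3 called lower of 27 tested, beside 1.56% and 1.32% of all genes tested. SPARC, a secreted matrix-binding glycoprotein, rose from 34.0, 30.7 and 36.2 to 86.8, 89.9 and 104 CPM (log2 fold change 1.48, SE 0.16, adjusted p = 5.08e-10). TGFBI, a matrix protein induced by TGF-β, rose from 141, 134 and 127 to 195, 208 and 220 CPM (0.64, SE 0.10, adjusted p = 5.52e-06). Fibronectin fell: FN1 was at 23.9, 29.3 and 25.8 CPM against 8.76, 13.2 and 7.91 CPM (−1.42, SE 0.27, adjusted p = 0.000219). DESeq2 gave FN1 no adjusted p and so made no call. THBS1, or thrombospondin, had a log2 fold change of −1.07 (adjusted p = 0.0101) with overlapping wells, and was not called without HcRed replicate 2 or 3 or NRF2 replicate 1, by DESeq2 or in 1 fit of all groups. The same list held TIMP1, a metalloproteinase inhibitor, called higher by only 0.20, a call lost without HcRed replicate 1 or 2 or NRF2 replicate 2 and in 1 fit of all groups.

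Metallothioneins, small cysteine-rich proteins that bind zinc and copper and are induced through metal response elements, gave 5 called lower of 8 tested, with a median log2 fold change of −0.38. Of all genes tested, 1.32% were called lower. MT1X was at 1780, 2070 and 2000 CPM in the HcRed wells and at 1440, 1620 and 1520 CPM in the NRF2 wells (−0.36, SE 0.05, adjusted p = 4.72e-08). MT1E was at 1920, 2020 and 2130 CPM against 1570, 1660 and 1650 CPM (−0.31, adjusted p = 2.76e-07). MT2A, with the most tags, was at 21200, 26400 and 31800 CPM against 16000, 22900 and 18700 CPM, and 1 NRF2 well overlapped the HcRed wells although the gene was called (−0.50, adjusted p = 1.86e-09). MT1X and MT1E were no longer called in 1 fit of all groups, nor MT2A by DESeq2. MT1G (−2.11) and MT1A (−2.41) had 11 or fewer counts in every well, and leaving out any well but HcRed replicate 2 lost the call of MT1G, and any well at all that of MT1A. DESeq2 called neither. Members of this family are near-identical in sequence, so tags may be split between them.

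The metal response element core, TGCACNC or TGCGCNC on either strand, was found in 29.6% of the 35116 windows. Stretches of MT2A (chr16:56608424-56608583, plus strand) and MT1X (chr16:56682300-56682443, plus strand) are printed because both genes were called and carry repeated cores, 5 in the MT2A stretch and 4 in the MT1X stretch, marked by capitals. The MT2A window also holds an ARE core, in lower case here, 104 bases before the start.
MT2A: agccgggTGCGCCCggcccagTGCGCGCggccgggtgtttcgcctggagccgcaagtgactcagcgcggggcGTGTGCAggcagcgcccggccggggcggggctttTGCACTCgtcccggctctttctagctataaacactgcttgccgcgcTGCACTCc
MT1X: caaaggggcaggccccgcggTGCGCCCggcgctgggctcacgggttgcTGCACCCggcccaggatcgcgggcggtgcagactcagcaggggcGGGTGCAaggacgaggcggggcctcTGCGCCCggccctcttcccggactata

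Genes with other roles were also called, most of them among those with the smallest adjusted p-values or the largest changes. CPVL, a carboxypeptidase-like protein, was at 34.0, 42.9 and 43.9 CPM against 129, 128 and 157 CPM (log2 fold change 1.75, SE 0.15, adjusted p = 1.04e-13). C3orf14, an open reading frame of poorly known function, was at 128, 114 and 126 CPM against 23.3, 25.6 and 30.2 CPM and fell by 2.19 (SE 0.17, adjusted p = 3.22e-16). TMSB4X, thymosin beta 4, which binds monomeric actin, fell from 2390, 2430 and 2500 to 1350, 1310 and 1380 CPM (−0.85, SE 0.04, adjusted p = 5.61e-25). AREG, the EGF receptor ligand amphiregulin, fell from 204, 250 and 304 to 121, 144 and 113 CPM (−1.01, adjusted p = 4.14e-10). MALAT1, a nuclear noncoding RNA, fell from 28000, 27700 and 27900 to 23300, 22900 and 25000 CPM (−0.22, SE 0.01, adjusted p = 1.12e-20). Other genes called lower were IFI27, an interferon-induced gene (−2.05, adjusted p = 3.74e-07), and KYNU, kynureninase of tryptophan breakdown (−1.74, adjusted p = 8.18e-06). DESeq2 gave neither of them an adjusted p, so it called neither. IL18, an inflammatory cytokine of epithelium, rose from 137, 169 and 170 to 245, 260 and 229 CPM (0.62, adjusted p = 7.36e-06). The lysosomal protease CTSV rose from 375, 402 and 376 to 574, 589 and 551 CPM (0.57, adjusted p = 1.25e-08).

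Among 35 cell cycle genes 4 were called higher and 2 lower. For this and the next lists, the shares over all genes tested were 1.56% higher and 1.32% lower. CCND1, or cyclin D1, which drives entry into S phase, fell from 54.1, 48.6 and 62.0 to 25.5, 32.9 and 27.3 CPM (−0.92, adjusted p = 0.000397). PCNA, the replication clamp, fell by only 0.22 (adjusted p = 0.0204) and lost its call without HcRed replicate 1 or 2 or NRF2 replicate 2 or 3 and in 1 fit of all groups. HMGB2 and H2AFZ, chromatin proteins with high levels in dividing cells, rose by 0.26 and 0.20, calls that were lost in 1 fit of all groups. AURKA rose by 0.39 (adjusted p = 0.00111), a call lost without NRF2 replicate 2. STMN1 rose by 0.23, a call lost without HcRed replicate 2 or 3 and in 1 fit of all groups. Of the 35 genes, 26 had a positive log2 fold change. Of 82 ribosomal protein genes tested, 22 were called higher and 10 lower, with a median log2 fold change of 0.06. These genes are abundant, with a summed level of 280000 to 293000 CPM in the HcRed wells. Some passed at small differences, as RPLP0 did at 0.10 (adjusted p = 0.00206). No gene of the ATF4 and endoplasmic reticulum stress list (28 tested) was called by limma, edgeR or DESeq2, and 3 had an unadjusted limma p below 0.05. The immediate early list (22 tested) had 0 called by limma, with 3 at an unadjusted p below 0.05, 2 called by edgeR and 0 by DESeq2. The interferon list (35 tested) had 1 called lower, IFI27, and the cytokine list (13 tested) had 1 called higher, IL18. The proteasome (36 tested) and heat shock (16 tested) lists had 1 called in each direction, and the sterol (23 tested) and hypoxia (22 tested) lists had 1 called lower each.

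The same contrast was made in the DMSO wells and in the NNK wells, which share no well with the CSC comparison. In DMSO 551 of 11217 genes were called (4.91%), and in NNK 332 of 10760 (3.09%). The 319 genes called under CSC mostly kept their direction. In DMSO 299 of the 319 (93.7%) had the same sign and 223 (69.9%) were also called in that direction, while 4 were called in the opposite direction. In NNK 305 (95.6%) had the same sign and 179 (56.1%) were called in that direction, and 0 were called in the opposite direction. Of genes not called under CSC, 59.2% had the same sign in each of the other chemicals. A core of 167 genes, 117 higher and 50 lower, was called in one direction under all 3 chemicals. Genes called higher and lower differed in this. The median of the 173 genes called higher was 0.35 under CSC, 0.36 in DMSO and 0.32 in NNK, and 84.4% and 68.8% were called in the same direction there. The median of the 146 genes called lower was −0.67 under CSC, −0.41 in DMSO and −0.39 in NNK, and 52.7% and 41.1% were called there. The genes were chosen by these CSC values, so a smaller median in wells not used for the choice can follow from the choice alone. Why genes called higher and lower differed was not tested.

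**Figure D3:**
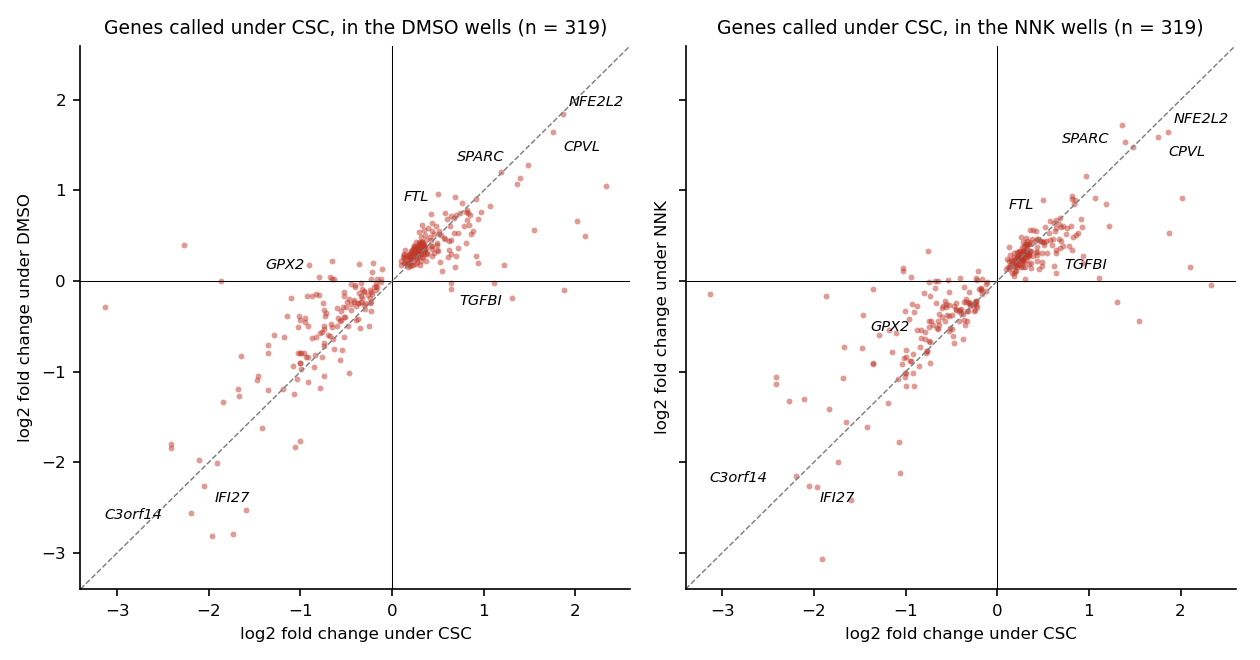
Log2 fold change of NRF2 over HcRed under CSC (x axis) for the 319 genes called there, against the same contrast in the DMSO wells (left) and in the NNK wells (right). Most points lie in the quadrants of equal sign, and NFE2L2, CPVL, SPARC and C3orf14 keep their place, whereas TGFBI and GPX2 lie near 0 in the DMSO wells.

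NFE2L2 rose by 1.85 in DMSO and 1.65 in NNK, close to its 1.86 under CSC. The ferritins were higher in the NRF2 wells under CSC, DMSO and NNK, on a level that itself differed between chemicals. FTL was at 4320, 4080 and 4330 CPM in the HcRed DMSO wells and at 7230, 7150 and 7160 CPM in the NRF2 DMSO wells, so its fold change was larger in DMSO (0.75) than under CSC (0.58), although its level was lower. The difference between these fold changes was −0.17 (adjusted p = 0.00211). FTH1 went the other way, with 439, 468 and 455 CPM against 540, 601 and 506 CPM in DMSO (0.26) and a difference between fold changes of 0.35 (adjusted p = 0.0311). GPX2 was at 17.9, 14.4 and 18.4 CPM against 15.8, 23.4 and 13.8 CPM in DMSO. Its wells overlapped there (0.04, adjusted p = 0.965), and in NNK its log2 fold change was −0.64 (adjusted p = 0.131). NQO1 (0.22 and 0.29 in DMSO and NNK) and GCLM (0.19 and −0.18) did not pass in either, while TXNRD1 passed in NNK (0.39, adjusted p = 0.0382).

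A test of the difference between the CSC and DMSO contrasts, over the 12 wells, called 26 of 11257 genes (0.231%), of which 2 were higher and 24 lower under CSC. These calls depended on the method. Calls numbered 6 by edgeR, 18 by DESeq2, of which 15 were among the 26, and 0 in 1 fit of all groups, with 505 at an unadjusted p below 0.05. RLE size factors gave 34 and a replicate block 52, and both kept all 26. The 10000 most variable genes gave 7, but this filter leaves the less variable genes untested. Ribosomal protein genes made up 16 of the 26, all lower. In DMSO 55 of the 82 tested ribosomal protein genes were called higher in the NRF2 wells and 5 lower, beside 22 and 10 under CSC. Of all genes tested, 4.91% were called in DMSO and 2.88% under CSC, so more genes of any kind were called in DMSO. Of the called genes, TGFBI had the larger of the 2 positive differences, 0.73 (adjusted p = 0.00146). It was at 153, 162 and 152 CPM against 150, 159 and 135 CPM in DMSO, with overlapping wells. In NNK it was at 113, 103 and 117 CPM against 131, 136 and 145 CPM, separate wells with a log2 fold change of 0.31 (adjusted p = 0.156). MALAT1 was called lower under CSC but higher in DMSO (0.09), a difference of −0.31 (adjusted p = 1.48e-20), and MT1X was lower under CSC and higher in DMSO (0.19), a difference of −0.54 (adjusted p = 1.52e-09). GPX2 was not among the 26, so its difference between chemicals was not shown by this test.

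When the 4935 genes with at least 10 CPM were put in chromosomal order (hg19) and divided into 238 runs of at least 20 neighbouring genes, called genes lay close together in places. This layout and the genes named from it were chosen after their values were seen. The median log2 fold change of a run ranged from −0.34 to 0.57 with an SD of 0.13. Runs with a median above 0.25 numbered 7, and of their 142 genes 38 were called higher. In the 4 runs with a median below −0.25, 15 of 80 genes were called lower. Over all 4935 genes 302 were called in either direction, which is the background for counts of calls in runs and stretches. The runs were picked by the CSC values on which the calls rest, so a high share of calls in them follows from that choice. Each of these 11 runs had the same sign in DMSO and in NNK. The stretches described below were not the only one-sided ones. On chromosome 5, 25 of 277 genes were called higher and 1 lower. Chromosome 19 had 12 called higher and 0 lower of 192, and chromosome 10 had 0 called higher and 11 lower of 221. The run medians under CSC correlated with those in DMSO at 0.82 and with those in NNK at 0.83 across the 238 runs, which share the gene order, the populations and the library method. Some genes described by role above lie in such runs. SPARC and TGFBI lie in runs of chromosome 5 with medians of 0.29 and 0.31. IL18 lies in a run of chromosome 11 at 0.29 and GSS in a run of chromosome 20 at 0.31. GSTP1 and CCND1, both called lower, share a run of chromosome 11 at −0.20. FTH1 and TFRC, both called higher, lie in runs at −0.007 and −0.12. Whether genes changed together with their neighbours was not tested, and DNA copy number was not measured.

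The end of the long arm of chromosome 20 was lower in the NRF2 wells. From GNAS to PRPF6 (57414773 to 62664453), 11 genes were measured, all 11 had a negative log2 fold change under CSC, in DMSO and in NNK, and 9 were called lower under CSC. Their medians were −0.92, −0.84 and −0.80 in the 3 chemicals. RPS21, a protein of the small ribosomal subunit (60962159 to 60963576), was at 4350, 4040 and 4390 CPM against 2080, 1920 and 1980 CPM and fell by 1.08 on the log2 scale (SE 0.04, adjusted p = 3.94e-33). PSMA7, a subunit of the 20S proteasome, was at 399, 409 and 376 CPM against 193, 211 and 186 CPM (−1.0, SE 0.08, adjusted p = 2.62e-14). ATP5E, a subunit of mitochondrial ATP synthase, was at 122, 129 and 121 CPM against 59.1, 56.3 and 70.5 CPM (−1.0, adjusted p = 4.72e-08). GNAS, which encodes the stimulatory G protein alpha subunit, was at 190, 224 and 193 CPM against 132, 120 and 114 CPM (−0.74). Of the 136 genes before GNAS on the same chromosome, 17 were called higher and 7 lower, with a median of 0.16. These were not uniform. The first pair of runs, of 20 genes each, had medians of −0.23 and −0.33, with 19 and 16 genes negative, while the runs that followed up to 48809205 had medians from 0.19 to 0.31. GNAS was set as the limit of the stretch after these values were seen.

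The last run of chromosome 11 (118886422 to 134123264) was higher. This run was picked because it had the highest CSC median on the chromosome. Of its 22 genes 9 were called higher, and 21 had a positive log2 fold change under CSC, as did 21 in DMSO and 18 in NNK, with medians of 0.57 under CSC, 0.61 in DMSO and 0.59 in NNK. STT3A, the catalytic subunit of an oligosaccharyltransferase that attaches N-glycans, was at 94.4, 98.6 and 101 CPM against 159, 166 and 172 CPM (0.76, adjusted p = 1.35e-06). THYN1, a nuclear protein, was at 95.6, 80.8 and 87.0 CPM against 148, 151 and 169 CPM (0.85, adjusted p = 2.65e-07). VPS26B, of the retromer complex, was at 30.2, 22.9 and 25.0 CPM against 44.5, 57.8 and 47.5 CPM (0.97, adjusted p = 0.00049). On this run 2 abundant genes, RPS25 and HSPA8, were set aside for the sums below.

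**Figure D4:**
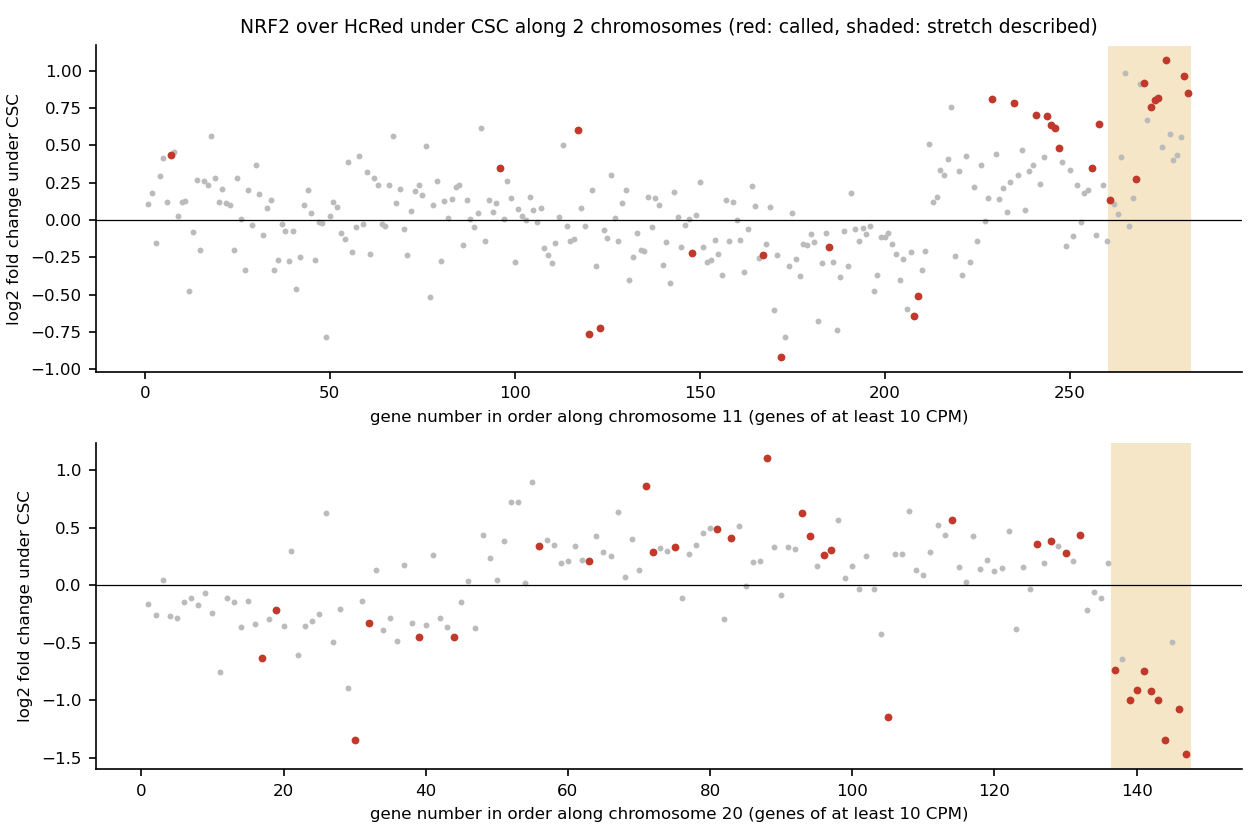
Log2 fold change of NRF2 over HcRed under CSC for genes with at least 10 CPM along chromosomes 20 and 11, with called genes in red and the described stretches shaded. From GNAS onward the genes of chromosome 20 lie below 0, and those of the last run of chromosome 11 lie mostly above 0.

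The summed level of both stretches was compared in other populations under CSC. These differ in type, since PIK3CA was overexpressed, FAT1 was knocked out and GFP was the control of the knockouts. For chromosome 20 without RPS21 (10 genes), the HcRed wells held 1000 to 1065 CPM and the NRF2 wells 522 to 550.1 CPM. The PIK3CA wells held 544.1 to 555.3 CPM, while GFP wells held 1195 to 1210 CPM and FAT1 wells 1167 to 1231 CPM. For chromosome 11 without RPS25 and HSPA8 (20 genes), HcRed wells held 731.1 to 751.6 CPM and NRF2 wells 1059 to 1114 CPM. The PIK3CA wells held 1062 to 1081 CPM, while GFP wells held 738.9 to 752.4 CPM and FAT1 wells 774 to 870.1 CPM. In DMSO, FGFR1 wells (815.1 to 923.1 CPM) and CDKN2A wells (819 to 901.9 CPM) lay between these sets on chromosome 20. On chromosome 11 in DMSO the sets were less distinct. FGFR1 wells (787.6 to 930 CPM) overlapped GFP wells (710.8 to 793.7 CPM), and CDKN2A wells (686.8 to 866.5 CPM) overlapped HcRed wells (682 to 758.3 CPM). FAT1 wells (841.2 to 867.5 CPM) lay above the HcRed wells there, and all of these lay below the NRF2 wells (1020 to 1106 CPM). The PIK3CA population, which carries another construct, thus lay with NRF2 on both stretches, and it did so too for CPVL (98.5 to 109 CPM) and C3orf14 (24.4 to 33.3 CPM), whereas FN1 at 69.5 to 70.1 CPM and MT2A at 37700 to 43200 CPM in the PIK3CA wells lay above both NRF2 and HcRed wells. SPARC held 204 to 256 raw counts in the PIK3CA wells under CSC. It held 119 to 144 in the NRF2 wells and 27 to 43 in the HcRed wells. KRT7 held 104 to 136 in PIK3CA, 75 to 83 in NRF2 and 18 to 35 in HcRed wells. S100P did not lie with NRF2, with 6 to 13, 55 to 72 and 15 to 24 counts. Nor did AREG, with 467 to 578, 157 to 197 and 162 to 353. These genes were picked after their values were seen. The PIK3CA wells under CSC lay in the same plate row as the HcRed wells. The part of any shared property of the NRF2 and PIK3CA populations in the calls of this comparison was not tested.

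**Figure D5:**
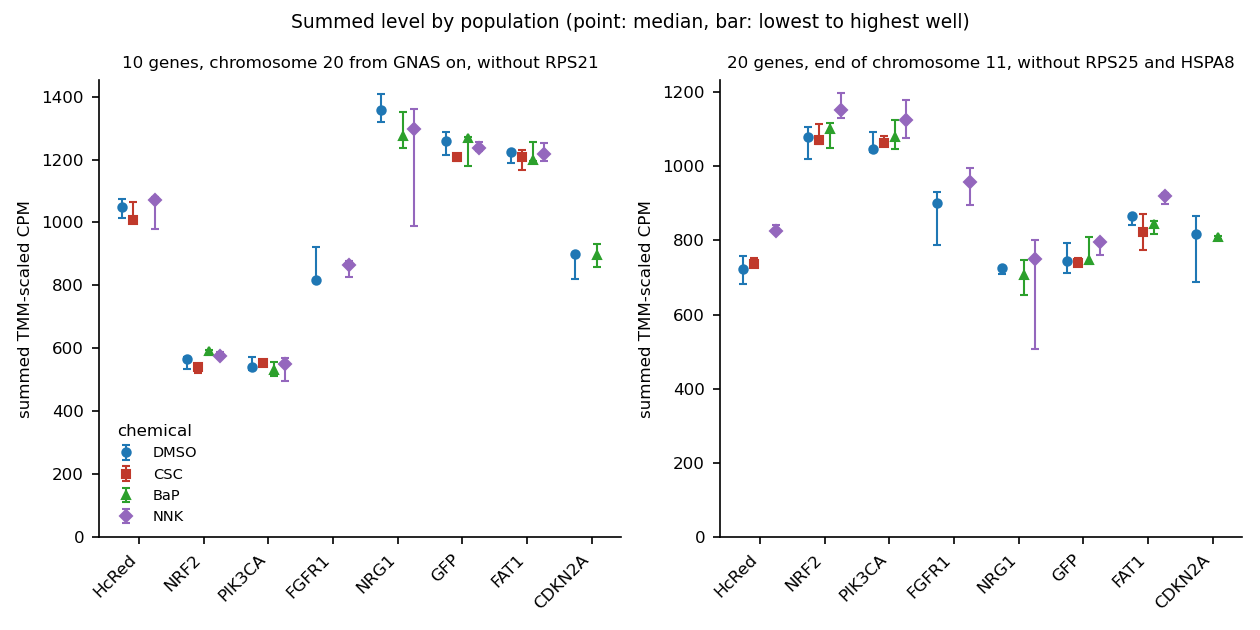
Summed TMM-scaled CPM of the 2 stretches by population and chemical, with a point for the median well and a bar from the lowest to the highest well. The NRF2 and PIK3CA populations lie together, at 522 to 555.3 CPM on the chromosome 20 stretch under CSC, and apart from HcRed, GFP and FAT1, while FGFR1 and CDKN2A lie in between on that stretch in DMSO.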

How the data were processed

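AALE cells in 24-well plates were profiled by 3′ digital gene expression. The deposited files hold raw UMI counts of 23895 genes for each of 95 wells. Per the labels and the study's methods, the authors aligned reads to hg19 RefSeq transcripts with BWA 0.7.10 and counted each UMI once per gene, so values do not depend on transcript length, and genes that share their 3′ end can share tags. Groups came from the well titles. The fits used 77 wells, and 18 wells whose titles give a lone well or a number of 2 digits were not used here.

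Genes with a mean count over 1 were kept, scaled by TMM (edgeR 4.0.16) and tested two-sided with limma-voom (limma 3.58.1, R 4.3.3), with Benjamini-Hochberg adjustment over all genes tested and a threshold of 0.05. The variance prior had 56.4 degrees of freedom beside 4 residual ones. The DMSO and NNK wells were fitted likewise, and the difference between CSC and DMSO contrasts as an interaction. Alternatives were edgeR quasi-likelihood, DESeq2 1.42.0, RLE size factors, no filter on low counts, the 10000 most variable genes, 1 fit of all groups, a replicate block, and leaving out each well. Intervals of 95% come from limma. Scripts were tested on simulated data.

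Replicate wells differed by more than sampling noise (chi-square per degree of freedom 1.17 to 1.77). Genes named were NFE2L2 and KEAP1, the 12 per direction with the smallest adjusted p and separate wells outside ribosomal protein genes, the 6 per direction with the largest change at 10 CPM or more, called members of the lists, members of the NRF2-linked lists, and up to 3 interaction genes per direction. The comparison, the members and the gene lists were chosen with earlier results of these data known. Gene positions in hg19 came from the annotation by symbol (90.7% of tested genes) or older symbol (6.89%), and 2.43% were not matched. A few genes are not reported here.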

Additional observations from a re-analysis of the deposited data

Results flagged for a closer look

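The NRF2 effect under CSC differed from that in DMSO, by a test of the difference itself over 12 wells (limma, adjusted p below 0.05), for 26 genes, of which 16 were ribosomal protein genes with differences between −0.19 (RPL14) and −0.11 (RPS23). The 10 others and RPS25 are given here, with MTAP, NCL and TPR chosen after their values were seen. The difference of the log2 fold changes, CSC minus DMSO, was −0.314 for MALAT1 (adjusted p = 1.48e-20), −0.543 for MT1X (adjusted p = 1.52e-09) and −0.235 for S100A6 (adjusted p = 9.95e-08). MTAP, a methionine salvage enzyme, had −0.810 (adjusted p = 0.00304), NCL, or nucleolin, −0.403 (adjusted p = 0.00146) and TPR, a nuclear pore protein, −0.362 (adjusted p = 0.0399). MALAT1, MT1X, S100A6 and NCL were called in opposite directions under the 2 exposures. The CSC call of S100A6 was lost by edgeR and in 1 fit of all groups, that of MT1X in 1 fit of all groups, and that of NCL in 1 fit of all groups and without HcRed replicate 2 or 3 or NRF2 replicate 2. For S100A8, a calcium-binding protein of squamous epithelium, the difference was −0.479 (adjusted p = 0.00146), with a log2 fold change of 0.01 under CSC and 0.49 in DMSO. For TGFBI it was 0.732 (adjusted p = 0.00146). For the ferritin chains it was −0.166 for FTL (adjusted p = 0.00211) and 0.351 for FTH1 (adjusted p = 0.0311), so the chains differed in opposite directions, while both were called higher under each exposure. RPS25, a ribosomal protein, had −0.165 (adjusted p = 0.0168) and was called higher under both. The cause of these differences was not tested.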

How the results depend on the processing

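The 319 calls under CSC became 220 by DESeq2, 370 by edgeR, 255 with no filter on low counts and 125 in 1 fit of all groups. They lay between 210 and 359 when 1 well was left out, with 210 without HcRed replicate 2. The 551 calls in DMSO became 351 by DESeq2 and 166 in 1 fit, with 418 to 520 when a well was left out. The 332 in NNK became 192 by DESeq2 and 103 in 1 fit, with 237 to 323 when a well was left out. By DESeq2 81.5% of the DMSO calls were higher, beside 69%. The 26 interaction calls were the least stable. They became 6 by edgeR, 18 by DESeq2, 34 with RLE size factors and 0 in 1 fit of all groups (505 at an unadjusted p below 0.05). The 10000 most variable genes gave 7, with the less variable genes left untested. Counts ran from 16 to 49 when a well was left out. They were 16 without NRF2 DMSO replicate 3 or NRF2 CSC replicate 2, 41 without HcRed DMSO replicate 3 and 49 without HcRed DMSO replicate 1. Of 102 called genes named, none changed sign under the 13 alternatives and 46 were called under all of them, while other genes were followed by counts only. The fit of all groups lost 40 calls, DESeq2 lost 24 and the fits without a well lost 10 to 19. The 24 include genes to which DESeq2 gave no adjusted p, among them SERPINB2, FN1, IFI27 and KYNU. The cause of these shifts was not tested. Depth limited low genes such as KEAP1, HMOX1 and GPX3.

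The replicate numbers did not pair the wells: deviations of NRF2 and HcRed wells with the same number correlated at 0.038 at most. A replicate block in the model gave 328 calls under CSC, 536 in DMSO, 355 in NNK and 52 for the interaction.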
